A study of Mus musculus with 3 samples.

Results

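The 37 genes described here encode soluble hydrolases, membrane proteins and proton pump subunits of the lysosome, and were read from single-cell counts of mouse brain myeloid cells. They were chosen by name from a fixed list, with earlier results of these data known. All 37 were present among the 15338 genes of the 3 count tables. Each table came from 1 library of sorted brain cells of mice aged 8 weeks, made with 10x Chromium 3' chemistry and labelled Experiment 2. The Control library was from male wild type mice, the hCD33M library from male mice carrying the long isoform of human CD33, and the hCD33m library from female mice carrying the short isoform that lacks the sugar-binding domain. Per the study's methods the transgene sits in the Rosa26 locus behind a floxed stop and is released by Cre driven from Cx3cr1, a gene of microglia and other myeloid cells, and the sort took cells positive for CD11b, Cx3cr1 and CD45. The study describes pooling of cells from mice of 1 genotype before the sort, without stating it for this experiment alone, and mice were perfused with inhibitors of transcription. Human CD33 transcripts were not analysed here. With 1 library per genotype there is no replicate of a genotype, and sex, mouse pool and library cannot be told apart from the hCD33m genotype.

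Lysosomes are acidic organelles in which macrophages and microglia break down what they take up. Hydrolases reach them as inactive precursors, the V-ATPase proton pump keeps their lumen acidic, and heavily glycosylated membrane proteins such as LAMP1 and LAMP2 line the limiting membrane. Loss of a single hydrolase causes storage of its substrate, and the brain is affected in many of these disorders. Many lysosome genes carry, near their start site, an E-box that is bound by the transcription factor TFEB and its relatives.

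The promoters of the members are given here because the rule for choosing genes did not use any sequence feature. RefSeq promoters of 300 bases (250 before and 50 after the start site, build GRCm38.p6) were found for 35 of the 37 members. The letters CACGTG, which read the same on both strands, stood in the promoter of 11 of these 35 genes (31.4%), against 973 of 7723 genes tested in the class comparisons below that had a promoter (12.6%) and 8.09% of all 27025 genes in the promoter table. The longer palindrome TCACGTGA, which holds the first pattern within it, stood in 4 of 35 members (11.4%), against 2.45% of the tested genes and 1.12% of all genes. Those 4 were Mcoln1, Atp6v0d1, Atp6v1a and Gla. In another list of 61 lysosome genes, 12 of the 45 with a promoter held CACGTG (26.7%) and 7 held TCACGTGA (15.6%). A letter match is a description of the window and does not show that a factor binds there. The promoters of Gla (chrX:134600956-134601255, minus strand), Atp6v1a (chr16:44139210-44139509, minus strand), Gaa (chr11:119267713-119268012, plus strand) and Lamp1 (chr8:13158911-13159210, plus strand) are printed 5' to 3' on the strand of the gene, and capitals mark each CACGTG or TCACGTGA. All 4 are examples from the 11 members that hold CACGTG, so they do not stand for the members at large. Tcirg1, Gm2a, Psap, Hexa and Grn, which are also named in several comparisons below, held no CACGTG.
Gla: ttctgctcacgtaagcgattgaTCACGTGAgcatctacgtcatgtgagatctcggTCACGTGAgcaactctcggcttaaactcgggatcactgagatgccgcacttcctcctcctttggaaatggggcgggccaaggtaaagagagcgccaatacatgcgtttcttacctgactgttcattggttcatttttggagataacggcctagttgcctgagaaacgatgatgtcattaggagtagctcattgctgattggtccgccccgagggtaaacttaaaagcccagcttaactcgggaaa
Atp6v1a: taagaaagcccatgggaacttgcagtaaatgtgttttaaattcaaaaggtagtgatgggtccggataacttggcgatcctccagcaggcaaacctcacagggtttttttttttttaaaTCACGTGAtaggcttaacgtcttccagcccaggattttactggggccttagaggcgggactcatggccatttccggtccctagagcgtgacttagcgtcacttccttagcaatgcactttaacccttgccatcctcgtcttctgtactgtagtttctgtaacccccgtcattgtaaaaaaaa
Gaa: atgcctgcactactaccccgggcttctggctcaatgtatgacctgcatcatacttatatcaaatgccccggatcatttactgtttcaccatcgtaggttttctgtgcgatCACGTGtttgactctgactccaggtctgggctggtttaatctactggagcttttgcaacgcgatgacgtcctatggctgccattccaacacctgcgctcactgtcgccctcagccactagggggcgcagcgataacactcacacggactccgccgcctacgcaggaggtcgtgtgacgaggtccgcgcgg
Lamp1: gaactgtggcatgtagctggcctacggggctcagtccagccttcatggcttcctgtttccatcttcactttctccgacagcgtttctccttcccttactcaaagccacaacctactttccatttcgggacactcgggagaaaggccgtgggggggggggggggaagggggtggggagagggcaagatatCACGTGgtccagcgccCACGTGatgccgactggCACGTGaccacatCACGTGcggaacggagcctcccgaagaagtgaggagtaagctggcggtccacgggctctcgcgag
The CACGTG letters of Gla began 227 and 194 bases before the start site, those of Atp6v1a 131 bases and those of Gaa 140 bases before it, while Lamp1 held them 4 times, beginning between 61 and 15 bases before its start.

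The libraries held 3482 (Control), 5100 (hCD33M) and 5707 (hCD33m) barcodes and between 21529542 and 32572995 UMIs, where a UMI marks 1 captured RNA molecule, and 3412, 5046 and 5612 cells passed the filters. Between 7 and 10 barcodes were shared by any pair of libraries. Cells were grouped without use of the members, and 12439 cells were called microglia-like from P2ry12, Tmem119 and related markers, 312 BAM-like (border-associated macrophages, with Mrc1 and Ms4a7) and 69 monocyte-like (Plac8 and Ly6c2). BAM-like and monocyte-like cells numbered 84 and 18 in Control, 101 and 23 in hCD33M and 127 and 28 in hCD33m, so 3 UMIs in the monocyte-like cells of a library were worth 12.3 to 17.1 CPM (UMIs of a gene per 1000000 UMIs of the same cells), and no smaller level could be told from 0. Median UMIs per cell were 5179 to 5565 in microglia-like, 6868 to 9023 in BAM-like and 5816 to 10635 in monocyte-like cells. The 3' method counts 1 tag per RNA molecule, so CPM were compared between genes without division by length.

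In microglia-like cells the members together took 1.56% of all UMIs in Control, 1.56% in hCD33M and 1.59% in hCD33m. Lgmn, which encodes the asparagine-specific endopeptidase legumain, was the highest member, at 3159 CPM in Control, 3127 CPM in hCD33M and 3311 CPM in hCD33m. Laptm5, a transmembrane protein of lysosomes in blood-derived cells, came next at 2401, 2535 and 2476 CPM, and its range lay wholly below that of Lgmn. Psap, the precursor of the saposins that present sphingolipids to their hydrolases, stood at 1672, 1618 and 1565 CPM. Grn, which encodes progranulin, a secreted protein processed to granulins in the lysosome, had 1010, 989 and 1077 CPM. Lamp1 followed at 1061, 990 and 926 CPM, and the ranges of Grn and Lamp1 overlapped.

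The highest glycosidase was Man2b1, the lysosomal alpha-mannosidase, with 683, 732 and 737 CPM in Control, hCD33M and hCD33m. Arsb, which removes sulfate from dermatan and chondroitin sulfate, led the sulfatases at 205, 243 and 260 CPM. Among proton pump genes the accessory subunit gene Atp6ap1 was highest, with 187, 199 and 194 CPM. Ctns, the cystine exporter, led the channel and transporter pair at 30.4, 32.7 and 36.2 CPM. Of the 37 members, 9 had a mean of at least 500 CPM over the 3 libraries, 21 at least 100 CPM and 28 at least 50 CPM. The 3 members under 20 CPM were Sgsh (10.1 CPM), Gla (4.40 CPM) and Atp6v0c (3.32 CPM). Atp6v0c has processed pseudogenes by name in the annotation, so its low count is uncertain. In the order of levels, 23 of the 36 neighbouring pairs had ranges over the libraries that did not overlap, and 13 pairs overlapped.

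**Figure D1:**
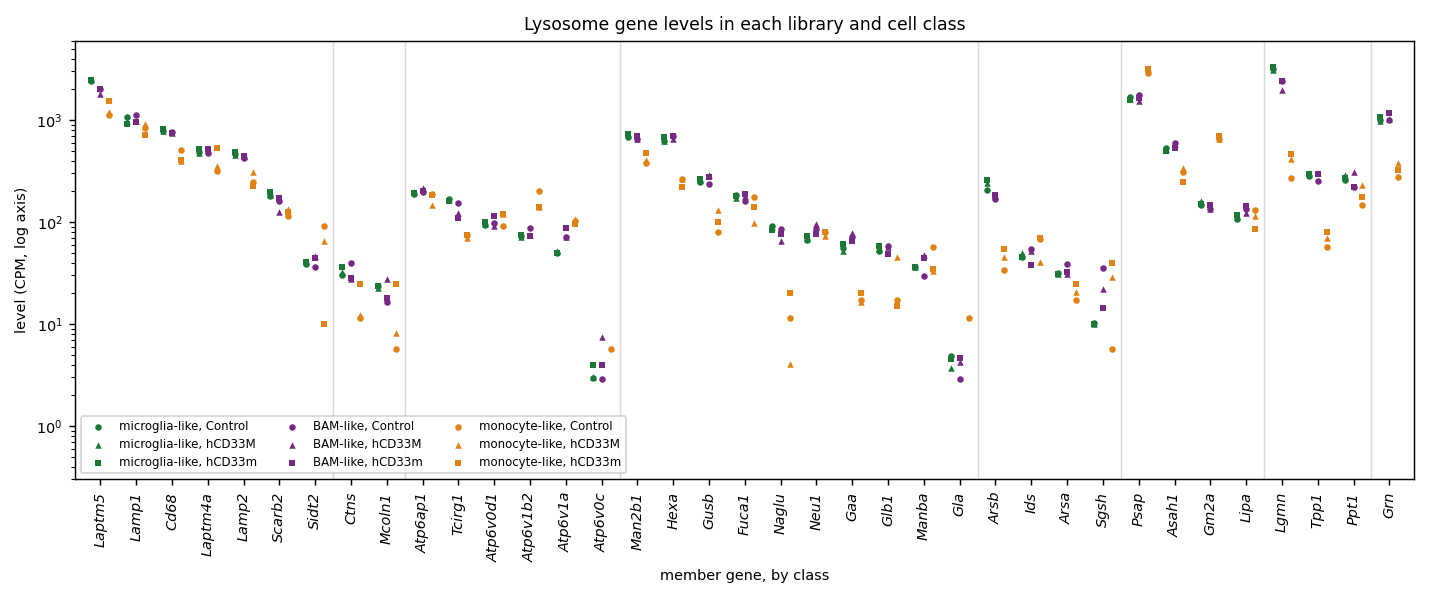
Level of each member (CPM, log axis) in microglia-like (green), BAM-like (purple) and monocyte-like (orange) cells, with 1 point per library (circle Control, triangle hCD33M, square hCD33m) and values of 0 not drawn. Lgmn lies at 3127 to 3311 CPM in microglia-like cells and at 268 to 464 CPM in monocyte-like cells, while Gm2a lies at 146 to 159 CPM and at 647 to 699 CPM.

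By class, membrane proteins summed to 5419, 5461 and 5453 CPM in microglia-like cells of Control, hCD33M and hCD33m. Proteases with the thioesterase Ppt1 summed to 3702, 3719 and 3878 CPM, of which Lgmn made up most. Lipid breakdown genes with their activators summed to 2462, 2412 and 2327 CPM and glycosidases to 2047, 2092 and 2182 CPM. Proton pump genes were far lower, at 577, 586 and 584 CPM, and sulfatases at 292, 334 and 346 CPM. Among the clusters named microglia-like the summed share was highest in the cluster led by Ccl4, Ccl3 and Cst7, at 1.69%, 1.79% and 1.75%, and lowest in the cluster of cycling cells, at 1.31%, 1.30% and 1.43%. A further pair of clusters, with median UMIs of 1168 and 1197 per cell, was left unnamed and out of every comparison below, although 9 and 8 of the 9 microglial markers reached 0.5 of their average level there. Their summed shares reached higher values, at 2.08%, 1.59% and 1.66% in the cluster led by Ttr and at 2.16%, 2.14% and 2.18% in the cluster led by Gm42418 and Lars2.

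Classes of cells were compared within libraries by edgeR's quasi-likelihood test on summed UMIs, with the library as a block and p-values adjusted over all 9771 genes tested. The p-values measure how far the difference between classes varied over these 3 libraries, and not a spread over replicates of a genotype. Each library was of another genotype, and its biological replication is not stated. Of the 37 members, 35 passed the filter on low counts, and Gla and Atp6v0c did not.

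In BAM-like against microglia-like cells, 6 of the 35 tested members were higher and 3 were lower, where 12.4% of all genes tested were higher and 8.73% lower. The median log2 fold change was 0.11 over the members and -0.02 over all genes. Sgsh, the sulfamidase of heparan sulfate breakdown, was at 35.5 CPM in Control, 22.2 in hCD33M and 14.5 in hCD33m among BAM-like cells and at 9.92 to 10.2 CPM in microglia-like cells. It was higher in all 3 libraries, with a log2 fold change of 1.29, SE 0.24, adjusted p 5.13e-05. Atp6v1a, the catalytic subunit of the proton pump, had 72.0, 72.0 and 87.7 CPM against 49.98 to 52.5 CPM, a log2 fold change of 0.72, SE 0.11, adjusted p 7.39e-07, and its groups did not overlap. Gaa, which degrades glycogen, was at 71.1, 78.4 and 64.6 CPM against 52.5 to 61.0 CPM, a log2 fold change of 0.40, SE 0.11, adjusted p 0.00629. For the sialidase gene Neu1 the values were 85.5, 95.3 and 77.2 CPM against 66.9 to 73.0 CPM, a log2 fold change of 0.39, SE 0.10, adjusted p 0.00408. Lipa, the acid lipase, showed 135, 123 and 142 CPM against 107 to 118 CPM, a log2 fold change of 0.35, SE 0.10, adjusted p 0.00511. The acid ceramidase gene Asah1 was the sixth, at a log2 fold change of 0.24 (SE 0.09, adjusted p 0.0414).

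The 3 lower members came from 3 classes. Lgmn was at 2417, 1986 and 2393 CPM in BAM-like cells, below the lowest microglia-like value of 3127 CPM, a log2 fold change of -0.40, SE 0.10, adjusted p 0.00219. Arsb was at 167, 179 and 183 CPM against 205 to 260 CPM, a log2 fold change of -0.32, SE 0.09, adjusted p 0.00819. Tcirg1, which encodes a membrane subunit of the proton pump, had 155, 124 and 111 CPM against 160 to 170 CPM, a log2 fold change of -0.27, SE 0.10, adjusted p 0.0463. None of the 7 membrane protein genes passed the test, and Cd68 stood at 757, 746 and 744 CPM in BAM-like against 782, 774 and 817 CPM in microglia-like cells. Of the other lysosome list 12 of 59 tested genes were higher and 4 lower, where 12.4% of all genes tested were higher and 8.73% lower. One of the 12, Acp5, met the filter only through the monocyte-like cells and had 7.91 CPM in BAM-like cells of hCD33m and 0 in the other libraries, so 11 of the other 58 were higher. Hgsnat at a log2 fold change of 1.85 and Galc at 1.41 were among them. Among the lower genes were Sort1, which encodes the sorting receptor sortilin, at -0.50 and Atp6v1c1 at -0.41.

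The BAM-like cells held much microglial RNA, and this was measured cell by cell. The 9 microglial markers summed to 11291, 8771 and 11203 CPM in BAM-like cells of Control, hCD33M and hCD33m, against 16789 to 18539 CPM in microglia-like and 770, 1400 and 2087 CPM in monocyte-like cells. Of the 312 BAM-like cells, 147 (33, 56 and 58) lay under 6000 CPM of these markers, with a median of 5521 UMIs and 5743 CPM of 5 BAM markers. The other 165 lay at or above it, with a median of 12986 UMIs, 2695 CPM of BAM markers and 12625.5 CPM of microglial markers. Within 2000 CPM of this limit, which was chosen after seeing the data, lay 52 cells. The cells under the limit held 174862 of the 1041269 BAM-like UMIs in Control, 328322 of 944152 in hCD33M and 388940 of 1516230 in hCD33m. Most of each BAM-like sum tested above thus came from the cells at or above the limit. The part of the microglial RNA in the BAM-like levels was not tested by any other measure.

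**Figure D2:**
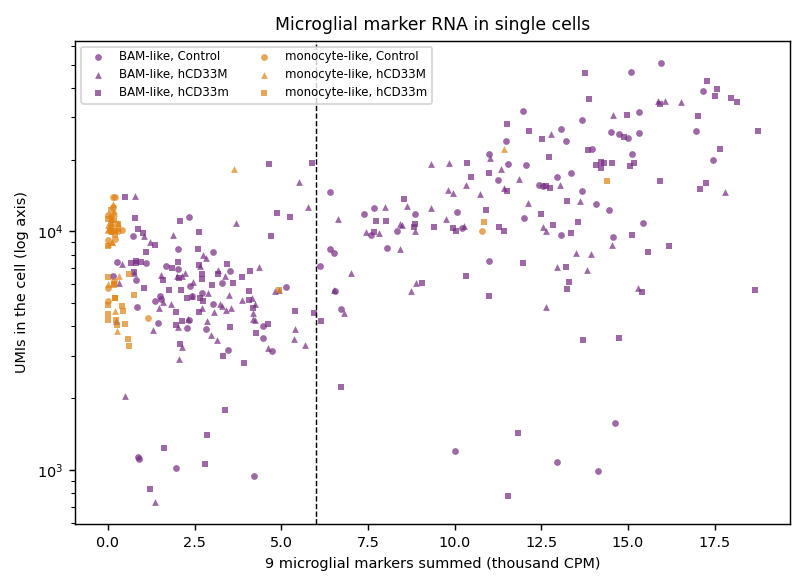
Each point is 1 BAM-like (purple) or monocyte-like (orange) cell, with the 9 microglial markers summed (in units of 1000 CPM) on the horizontal axis, its UMIs (log axis) on the vertical axis, shapes for libraries and a dashed line at 6000 CPM. Of the BAM-like cells 147 lie to the left of the line and 165 to the right, and 65 of the 69 monocyte-like cells lie to the left.

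With only BAM-like and monocyte-like cells under that limit, 6 of 36 tested members were higher than in microglia-like cells and 6 lower, where 14.4% of all genes were higher and 12.7% lower. Lgmn then stood at 984, 1109 and 992 CPM, below all of the microglia-like range, with a log2 fold change of -1.34, SE 0.13, adjusted p 7e-17. Atp6v1a rose further, at 103, 88.3 and 92.6 CPM and a log2 fold change of 1.18, SE 0.21, adjusted p 1.48e-06. Asah1, at 612, 652 and 573 CPM, had a log2 fold change of 0.55, SE 0.14, adjusted p 0.000788. Sgsh (1.54) and Gaa (0.68) stayed higher, and Lamp1 (0.37) and Hexa (0.35) passed the test with higher CPM in 2 of 3 libraries. Neu1 (0.51) and Lipa (0.31) no longer passed. The other lower members were Naglu at -0.77, Arsb at -0.76, Scarb2, which encodes the lysosomal membrane protein LIMP-2, at -0.74, Tcirg1 at -0.71 and Laptm5 at -0.62. All members together took 1.14%, 1.21% and 1.13% of UMIs in these cells, against 1.46%, 1.37% and 1.46% over all BAM-like cells.

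**Figure D3:**
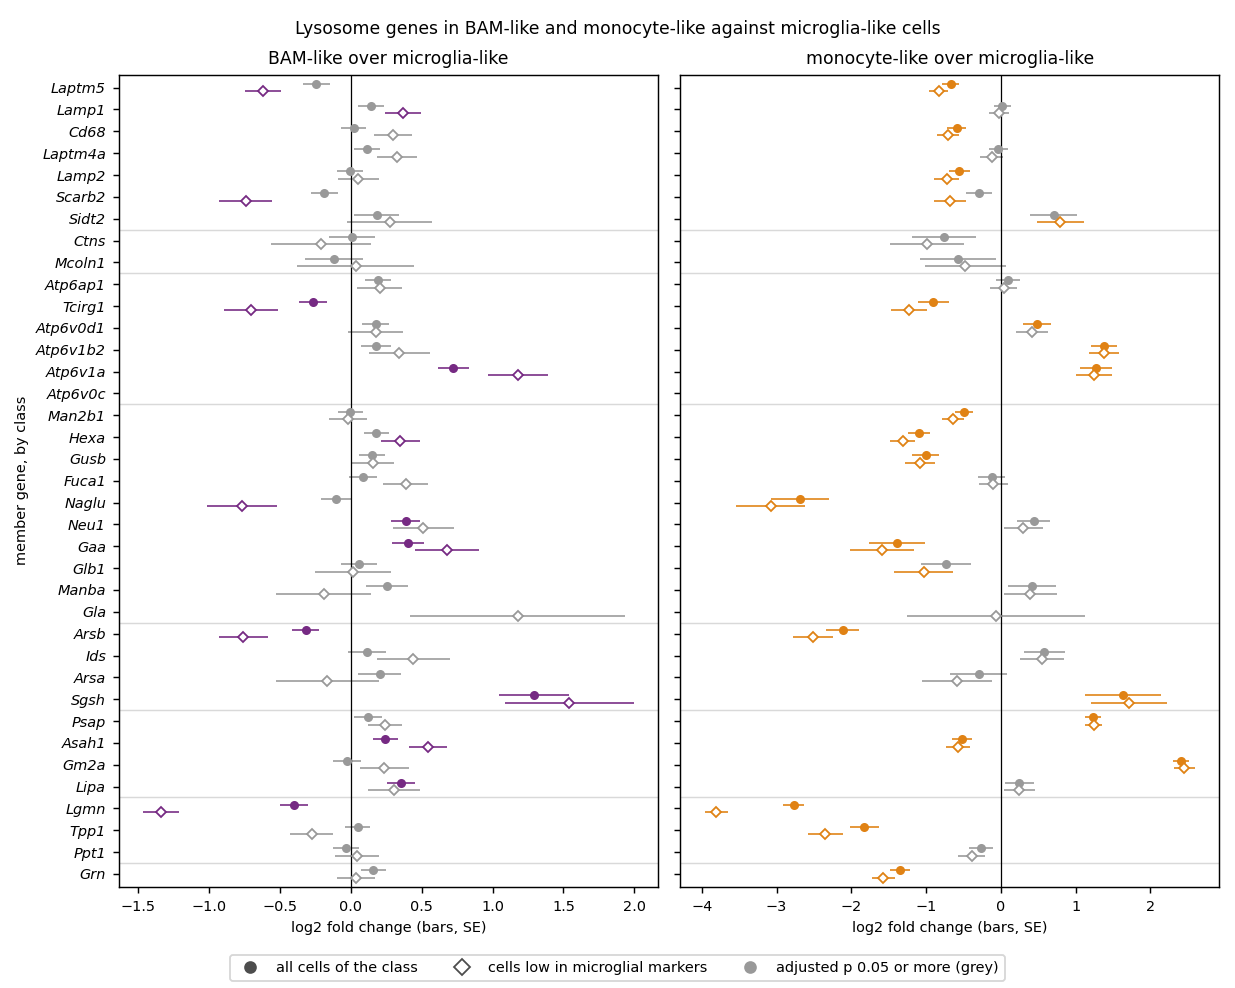
Log2 fold changes with SE of each member in BAM-like (left, purple) and monocyte-like (right, orange) over microglia-like cells, for all cells of the class (filled circles) and for cells low in microglial markers (open diamonds), with grey for adjusted p of 0.05 or more. Lgmn moves from -0.40 to -1.34 on the left and from -2.77 to -3.80 on the right, while Gm2a stays near 2.4 on the right.

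The count of called members, given here without the share of all genes, changed with the library left out and with the tool. It was 3 higher without Control (Gaa and Lipa were among those lost) and 3 higher without hCD33M (Gaa and Neu1), and 1 lower without hCD33m (Arsb and Tcirg1 were lost), while DESeq2 called 2 higher and 1 lower. Scaled to library totals alone, an alternative added after seeing the data, 5 members were higher and 5 lower, the median of all genes moved by -0.10, and 39.9% in place of 58.7% of all called genes were higher.

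More members, and more of all genes, passed the test in monocyte-like than in BAM-like cells. Against microglia-like cells 6 of the 35 tested members were higher and 14 lower, where 20.2% of all genes were higher and 21.2% lower, with a median log2 fold change of -0.30 for the members and -0.17 for all genes. The members together took 0.989%, 1.07% and 1.07% of UMIs. The higher members were the lipid activators Gm2a and Psap, 3 pump subunits and the sulfatase Sgsh, and the lower ones were mostly glycosidases, proteases and membrane proteins.

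Gm2a encodes the activator that presents GM2 ganglioside to beta-hexosaminidase A. It was at 656, 647 and 699 CPM in monocyte-like cells of Control, hCD33M and hCD33m, against 146, 159 and 149 CPM in microglia-like cells, a 5.32-fold difference (log2 2.41, SE 0.11, adjusted p 1.54e-23). Psap was at 2928, 3276 and 3161 CPM, above each microglia-like value, with a log2 fold change of 1.23, SE 0.10, adjusted p 4.51e-14. With these genes in it, the class of lipid breakdown summed to 4024, 4377 and 4189 CPM in monocyte-like against 2462, 2412 and 2327 CPM in microglia-like cells. Asah1 of the same class was lower, at a log2 fold change of -0.51, and Lipa did not pass (0.25, adjusted p 0.32). Atp6v1b2, a subunit of the pump's catalytic head, had 200, 139 and 140 CPM against 71.7 to 74.6 CPM, a log2 fold change of 1.38, SE 0.18, adjusted p 7.82e-09. Atp6v1a, in the same head, was also higher (1.27, adjusted p 2.08e-06), as was Atp6v0d1 (0.49), the latter in 2 of 3 libraries on CPM, while Tcirg1 of the membrane sector was lower (-0.90). Sgsh passed at a log2 fold change of 1.64 (SE 0.51, adjusted p 0.00761) from 1, 7 and 8 UMIs, with groups that overlapped, and it did not pass without hCD33M (1.51) or without hCD33m (1.23).

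Lgmn fell most among the members, to 268, 414 and 464 CPM, a log2 fold change of -2.77, SE 0.14, adjusted p 1.27e-21. Naglu, an enzyme of heparan sulfate breakdown, had 2, 1 and 4 UMIs (11.4, 4.09 and 19.97 CPM) against 83.3 to 91.7 CPM, and the values of Control and hCD33M lay under the level of 3 UMIs. It passed the test (adjusted p 1.23e-07), and over its 7 UMIs the CPM ratio was 0.129, with an exact 95% counting interval of 0.0517 to 0.265. With cells thinned to 2000 UMIs it had 0 UMIs in monocyte-like cells. Arsb was at 34.2, 45.0 and 54.9 CPM against 205 to 260 CPM, a log2 fold change of -2.12, SE 0.22, adjusted p 4.57e-11. The tripeptidyl peptidase gene Tpp1 had 57.1, 69.6 and 79.9 CPM against 285 to 303 CPM, a log2 fold change of -1.83, SE 0.20, adjusted p 8.81e-11. Gaa rested on 3, 4 and 4 UMIs, or 17.1, 16.4 and 19.97 CPM (adjusted p 0.0021), and the CPM ratio over these 11 UMIs was 0.312, with a counting interval of 0.156 to 0.56. Each of these 5 genes was lower in all 3 libraries, with no overlap of the groups. Grn was at 280, 381 and 325 CPM, a log2 fold change of -1.35, SE 0.14, adjusted p 9.1e-12. The remaining lower members were Hexa (-1.09), Gusb (-1.01), Tcirg1, Laptm5 (-0.67), Cd68 (-0.59), Lamp2 (-0.55), Asah1 and Man2b1 (-0.50). Lamp1 did not pass, at 833, 925 and 714 CPM.

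Compared with BAM-like cells, 4 of 35 members were higher in monocyte-like cells and 14 lower, where 16.4% of all genes were higher and 17.6% lower. Gm2a (133, 136 and 146 CPM in BAM-like cells) differed by a log2 fold change of 2.44, SE 0.12, adjusted p 2.26e-21, and Psap, Atp6v1b2 and Atp6v1a were the other higher members, 2.16-fold, 2.29-fold and 1.46-fold. Naglu, at 86.4, 65.7 and 76.5 CPM in BAM-like cells, was lower in monocyte-like cells (adjusted p 1.47e-06), with a CPM ratio of 0.148 and a counting interval of 0.0588 to 0.308. For Lgmn the fold change was -2.37 (SE 0.14, adjusted p 2.59e-18), for Tpp1 -1.87 (SE 0.20, adjusted p 1.77e-10) and for Arsb -1.80 (SE 0.24, adjusted p 3.58e-08). Gaa had a fold change of -1.80 (SE 0.37, adjusted p 0.000118, from 11 UMIs), since it was above microglia-like cells in BAM-like and below them in monocyte-like cells. Grn, at 1003, 1028 and 1179 CPM in BAM-like cells, had -1.51 (SE 0.14, adjusted p 1.04e-12). Hexa, the alpha subunit of beta-hexosaminidase A, had 695, 649 and 702 CPM in BAM-like and 263, 262 and 220 CPM in monocyte-like cells, a log2 fold change of -1.28, SE 0.14, adjusted p 5.2e-10. Gm2a and Hexa, which act on the same ganglioside, moved in opposite directions between these classes.

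In cells under the limit of microglial markers, 6 of 36 members were higher and 16 lower in monocyte-like than in microglia-like cells (18.7% and 22.7% of all genes), and 3 were higher and 14 lower than in BAM-like cells (9.8% and 12%). Lgmn was then at 170, 252 and 162 CPM in monocyte-like cells. Under library totals alone the counts were 5 higher and 20 lower against microglia-like cells and 3 higher and 17 lower against BAM-like cells, the median of all genes moved by -0.28 and -0.18, and 33.5% in place of 48.9%, and 36.4% in place of 48.3%, of all called genes were higher. No called member changed sign under library totals or under median-of-ratios factors. The makeup of the monocyte-like cells differed between libraries, with Cd74 at 6598, 4922 and 1623 CPM, Ccr2 at 2100, 2211 and 984 CPM and Ace at 194, 102 and 290 CPM, and its part in the member values was not tested.

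The other lysosome list held called genes in both directions. Against microglia-like cells 12 of its 59 tested genes were higher and 23 lower in monocyte-like cells. Over all genes tested 20.2% were higher and 21.2% lower. Among genes with a mean of at least 5 CPM in both groups, 19% of the list and 19.9% of all genes were higher, so the higher count was near the share of all genes. The lower shares there were 39.7% and 18.4%. Acp5, at 0, 20.5 and 54.9 CPM against 0 to 0.271 CPM, met the filter only through the monocyte-like cells, and without it 11 of 58 were higher, among them Galns, with a log2 fold change of 1.83 though it was at 0 in hCD33M, and Tmem192 at 1.69. The lower genes included Cd63, a tetraspanin of late endosomes, at -3.91 and the acid phosphatase gene Acp2 at -2.21. Against BAM-like cells 9 were higher, or 8 of 58 without Acp5, among them Tfeb (1.35) and Tmem192 (1.19), and 19 lower, among them Cd63 at -4.48 and Atp6v0a1 at -2.26. In that comparison 16.4% of all genes tested were higher and 17.6% lower.

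Microglia-like cells with at least 2 UMIs of Cst7, which encodes cystatin F, an inhibitor of lysosomal cysteine proteases that rises in disease-associated microglia, were set against microglia-like cells with no Cst7 UMI. There were 34, 153 and 129 Cst7-positive cells in Control, hCD33M and hCD33m against 2815, 4189 and 4518 negative cells. The makeup of the positive cells differed between libraries: the cluster led by Ccl4, Ccl3 and Cst7 held 10 of the 34 in Control (29.4%), 118 of the 153 in hCD33M (77.1%) and 95 of the 129 in hCD33m (73.6%), and Ccl4 stood at 1137, 284 and 65.8 CPM in them. The part of this makeup in the member values was not tested. In the positive cells 15 of 36 tested members were higher and 0 lower, where 4.25% of all 9654 genes tested were higher and 2.08% lower. One of the 15, Gla, met the filter only through the positive cells. Among genes with a mean of at least 5 CPM in both groups, 14 of 35 members were higher and 0 lower, beside 3.94% and 2.13% of 9376 genes. At an unadjusted p below 0.05, 21 members were higher and 0 lower, and DESeq2 called 13 higher and 0 lower. Shares of all genes are not given for either count. The median log2 fold change was 0.31 for the members and -0.00 for all genes. Members took 1.69%, 1.81% and 1.75% of UMIs in the positive cells and 1.55%, 1.55% and 1.58% in the negative cells.

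Glycosidases made up 7 of the 15, or 6 of the 14 without Gla. Gla, the alpha-galactosidase that acts on glycosphingolipids, had 9, 17 and 15 UMIs in positive cells, or 21.8, 14.1 and 11.9 CPM, against 4.15, 3.01 and 4.08 CPM in negative cells. The fitted difference was 4.21-fold (log2 2.08, SE 0.36), and it is given without its test because of the filter. It ranged from 0.99 to 2.82 over the alternatives, and Gla did not pass (0.99) when the positive cells were replaced by a cluster led by Cst7, in which Control had 3 cells. Its promoter, printed above, was the only member promoter with TCACGTGA at more than 1 place. Gaa was at 72.7, 98.9 and 102 CPM against 49.6 to 57.7 CPM, a log2 fold change of 0.88, SE 0.12, adjusted p 0.000129. Glb1, the beta-galactosidase, showed 67.9, 91.4 and 93.6 CPM against 51.4 to 56.5 CPM, a log2 fold change of 0.78, SE 0.11, adjusted p 0.000312. Hexa was at 775, 1076 and 1005 CPM against 593 to 660 CPM, a log2 fold change of 0.68, SE 0.09, adjusted p 0.000144. Naglu was at 109, 132 and 113 CPM against 81.1 to 90.3 CPM, a log2 fold change of 0.56, SE 0.10, adjusted p 0.00196. Gusb (0.43) and Man2b1 (0.50) completed the 7.

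Gm2a had 182, 323 and 282 CPM against 141 to 149 CPM, a log2 fold change of 0.98, SE 0.11, adjusted p 2.55e-05, so that here it rose together with Hexa. Psap was at 2087, 2145 and 2013 CPM against 1526 to 1657 CPM (log2 0.46, adjusted p 0.000525). Among membrane proteins Cd68, a lysosome protein of macrophages, had 1081, 1080 and 980 CPM against 751 to 797 CPM, a log2 fold change of 0.50, SE 0.08, adjusted p 0.000446, and Lamp1 was the other to rise, at 0.37. Of the pump genes Atp6v1a stood at 50.9, 77.3 and 69.0 CPM against 48.7 to 50.8 CPM, a log2 fold change of 0.54, SE 0.13, adjusted p 0.0137. Atp6ap1 (0.49) and Tcirg1 (0.37, higher in 2 of 3 libraries on CPM) also rose, and Grn did so by 0.30. By contrast none of the 4 sulfatases, none of the 3 proteases and thioesterase and neither the channel nor the transporter passed the test. Lgmn was at 2964, 2781 and 2897 CPM in positive cells and at 3163, 3147 and 3334 CPM in negative cells (log2 -0.09, adjusted p 0.532). Sgsh had 0, 8 and 22 UMIs in the positive cells. Among class sums, glycosidases were at 2445, 3211 and 2939 CPM in positive cells against 2031, 2013 and 2126 CPM in negative cells. The sum of proteases and thioesterase was lower in positive cells in each library, at 3521, 3354 and 3515 CPM against 3705, 3739 and 3898 CPM. That of sulfatases was lower in Control and hCD33M and higher in hCD33m. Class sums were not tested.

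**Figure D4:**
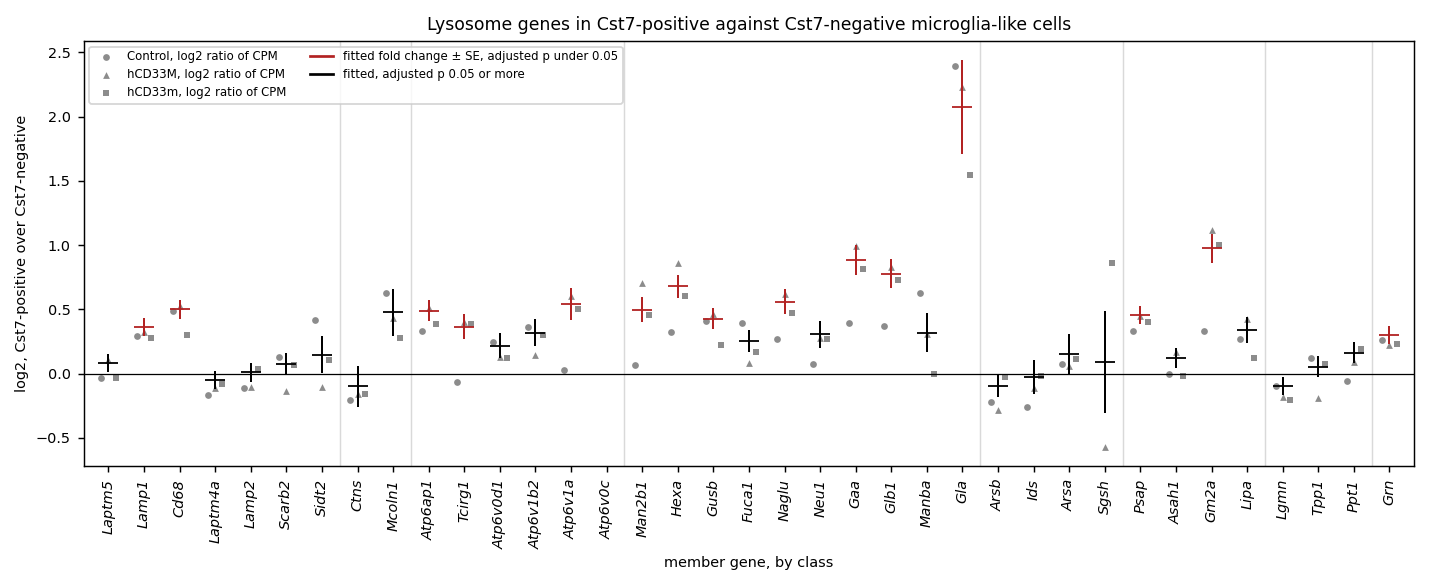
Log2 ratio of CPM in Cst7-positive over Cst7-negative microglia-like cells for each member and library (grey points), with the fitted fold change and SE as a cross (red where the adjusted p was under 0.05). The 15 red members lie above 0, among them Gla, which met the filter on low counts only through the positive cells, and the sulfatases and proteases carry no red cross.

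Of the 15 higher members, which all had a promoter in the table, 6 held CACGTG (Lamp1, Atp6v1a, Gaa, Gla, Glb1 and Naglu), and of the 19 other tested members with a promoter 5 held it. Without Gla 5 of 14 held it. TCACGTGA stood in 2 genes on either side, Gla included. Of the other lysosome list 15 of 58 tested genes were higher and 1 was lower, where 4.25% of all genes tested were higher and 2.08% lower. Cd63 led at 1137, 1240 and 1046 CPM against 444 to 479 CPM (log2 1.38), and Npc2, which carries cholesterol in the lysosome, was among the higher genes as well (0.59). Lamtor1 was lower (-0.38).

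The Cst7-positive cells differed in other ways. Their median UMIs were 8182, 6245 and 7823 against 5526, 5139 and 5226, and their median mitochondrial share was 2.25%, 4.58% and 3.40% against 1.88%, 2.07% and 1.79%. The 13 BAM markers summed to 174 to 235 CPM against 47.3 to 57.1 CPM, with Lyve1, Cd163 and Clec4n at 0 in the positive cells, and the 9 monocyte markers to 3.17 to 17.0 CPM against 10.0 to 13.5 CPM. The 9 microglial markers summed to 13255 to 15376 CPM in positive and 17014 to 18782 CPM in negative cells. Against negative cells matched on UMIs 13 members were higher and 0 lower. Without cells holding a UMI of 5 BAM markers 13 were higher, beside 371 of 9640 genes, with Tcirg1 and Atp6v1a lost. The number of calls changed with the library left out, being 8 without hCD33M, 9 without hCD33m and 18 without Control, with 0 lower each time. For the matched cells and the fits that left out a library, shares of all genes are not given. Naglu did not pass without hCD33M, and Atp6v1a passed neither without hCD33M nor without hCD33m. Under library totals alone 14 members were higher and 0 lower, while 44.1% in place of 67.1% of all called genes were higher.

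Between genotypes, microglia-like cells were compared as 1 library against another, with no test. A log2 ratio of CPM is given with its exact 95% interval from the counts, which covers counting error only, and a member counted as different past 1.2-fold. The 3 comparisons share libraries. For the 34 members that reached 20 CPM in either library of the pair, hCD33m over Control gave 1 member higher and 0 lower, where 4.89% of all 6766 genes were higher and 4.55% lower. The median log2 ratio was 0.06 over the 34 members and -0.00 over all genes. Ratios lay above 0 for 23 of the 34 members and for 49.4% of all genes. For hCD33M over Control no member was past 1.2-fold in either direction (2.84% and 1.63% of genes), with a median of 0.00 beside 0.01 for all genes. For hCD33m over hCD33M there was again none (3.01% and 3.94% of genes), with a median of 0.04 beside -0.02. None of the 53 other lysosome genes at 20 CPM or more was past 1.2-fold in any pair, and their medians were -0.02, -0.02 and -0.01.

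Arsb was the member past 1.2-fold. It was lowest in Control at 205 CPM, with 243 CPM in hCD33M and 260 CPM in hCD33m, and its log2 ratio was 0.34 (0.28 to 0.40) for hCD33m over Control and 0.24 (0.19 to 0.30) for hCD33M over Control. In BAM-like cells the same order held at 167, 179 and 183 CPM, but the interval of the ratio (-0.14 to 0.42 for hCD33m over Control) took in 0. Lamp1 fell in the order Control, hCD33M and hCD33m, from 1061 to 990 and 926 CPM, with a log2 ratio of -0.20 (-0.22 to -0.17) for hCD33m over Control, -0.10 for hCD33M over Control and -0.10 for hCD33m over hCD33M. The order stood in each of the 3 clusters of microglia-like cells with the most UMIs, where Lamp1 was at 1000.2, 929 and 876 CPM, at 1028, 939 and 887 CPM and at 1150, 1074 and 987 CPM. It stood in the other microglia-like clusters too, except that of cycling cells (752, 870 and 687 CPM), and in neither of the unnamed clusters. The clusters come from the same 3 libraries, so they do not repeat the comparison.

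The other high ratios of hCD33m over Control were Ctns at 0.25 (0.10 to 0.40), Glb1 at 0.17 (0.06 to 0.28) and Lipa at 0.14 (0.06 to 0.22). The other low ones were Naglu at -0.14 (-0.23 to -0.05), Asah1 at -0.11 (-0.15 to -0.08) and Psap at -0.10 (-0.12 to -0.08). For hCD33M over Control the highest after Arsb were Ppt1, which removes fatty acids from proteins, at 0.16 (258 to 289 CPM), Ids at 0.14 and Gm2a at 0.12 (146 to 159 CPM). The lowest were Gaa at -0.10 (-0.22 to 0.02), Lamp1, Fuca1 at -0.08 and Mcoln1, the lysosomal calcium channel, at -0.06 (-0.24 to 0.12), and the intervals of Gaa and Mcoln1 took in 0. For hCD33m over hCD33M the highest were Gaa at 0.22 (52.5 to 61.0 CPM), Ctns at 0.15, Hexa at 0.13 (624 to 683 CPM) and Glb1 at 0.12. The lowest were Ids at -0.14, Naglu at -0.12, Ppt1 at -0.11 and Lamp1. Lamp2, Atp6ap1, Gla and Ids lie on the X chromosome, and for them too the sex of the mice cannot be told apart from the genotype.

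**Figure D5:**
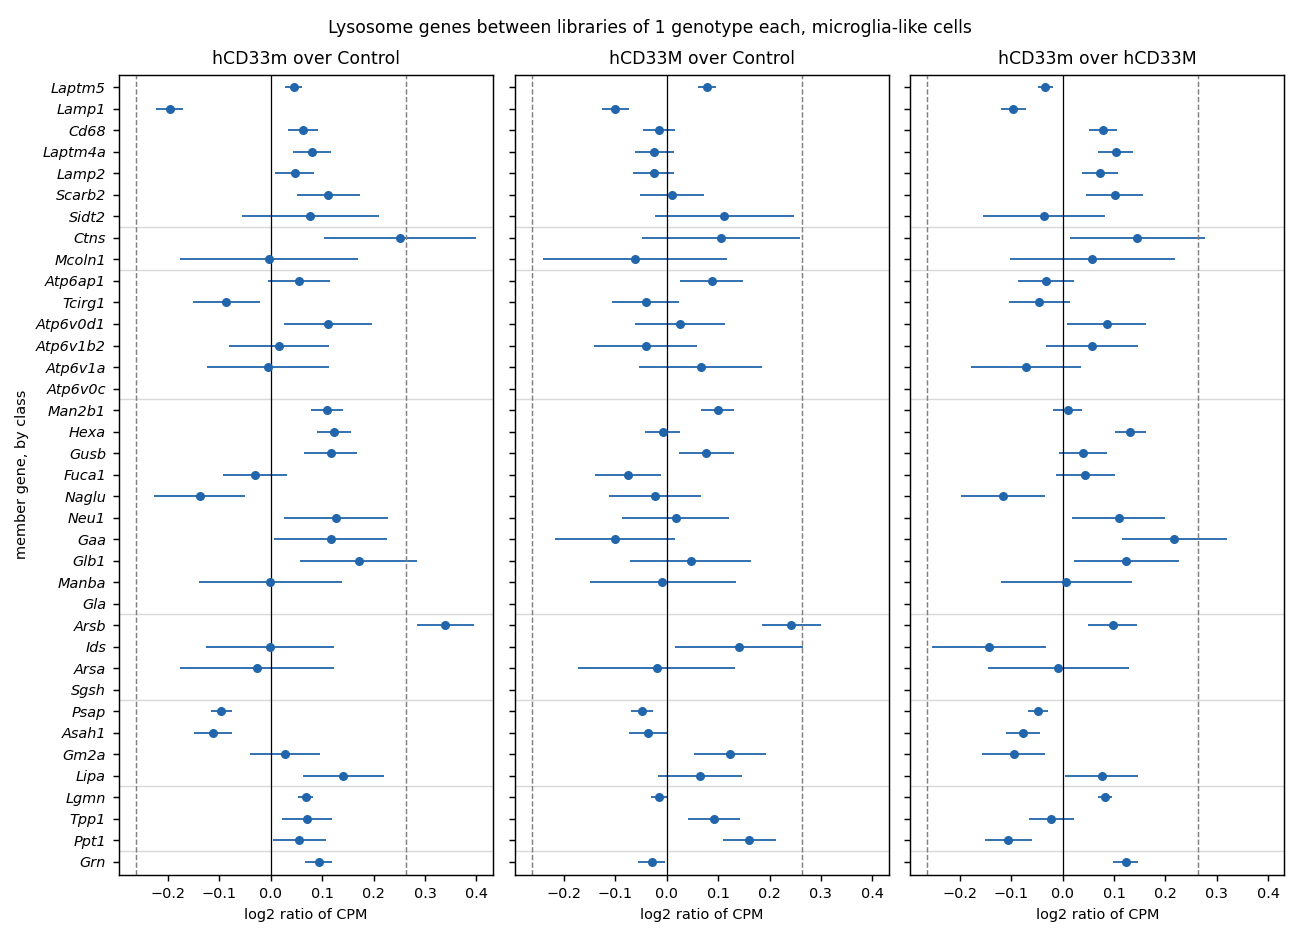
Log2 ratio of CPM for each member between 2 libraries of microglia-like cells, with exact 95% counting intervals, a solid line at 0 and dashed lines at 1.2-fold, for members that reached 20 CPM in either library. Arsb in hCD33m over Control, at 0.34, is the only point beyond a dashed line, and Lamp1 lies below 0 in all 3 panels.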

How the data were processed

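Single-cell RNA was measured in 3 libraries. Per the study's methods the authors aligned reads to mm10 with Cell Ranger (STAR) and made the tables in Seurat, and the submitters' processing notes name both mm10 and Seurat. The authors deposited raw counts (UMIs per gene and cell, not normalized), and left out cells of 200 genes or fewer and any gene found in under 3 cells. The later filters of the study were applied here (under 8000 genes, at most 10% mitochondrial UMIs, at least 200 UMIs), and they left slightly more cells in each library than the study states. Total counts per library are given in the report, and intervals cover counting error only.

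Cells were clustered with scanpy 1.11.5 (2000 variable genes, 15 principal components, 20 neighbours, Leiden resolution 0.5), leaving out the members, the other lysosome genes, sex-linked genes and early response genes, and named from fixed markers. Scrublet called 0% of cells in each library as doublets, which was taken as a failed call, so no doublets were removed, and leaving out the deepest 5% or the top 4% of scores was tried instead. UMIs were summed per library and class (9 sums) or Cst7 state (6 sums) and tested with edgeR 4.0.16 (R 4.3.3) by quasi-likelihood, with TMM factors, the library as a block, genes with a mean of at least 5 CPM, and Benjamini-Hochberg adjustment over all genes tested at 0.05. Each library gives every class, and that is where the pairing comes from. Genotypes had 1 library each and no test. Exact 95% intervals came from the counts.

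All members may be named. Values per library are given for the 8 members with the largest fold changes past the threshold in each comparison, for the highest member of each enzyme class, and for the 4 highest and 4 lowest ratios in each pair of genotypes. Members of other ranks that are given by library were singled out after their values were seen. Of the other lysosome genes, the 3 highest and 3 lowest past the threshold are named, except for some genes that are not reported here. The members and lists were chosen with earlier results of these data known. The alternatives were DESeq2 1.42.0, other scalings, other filters on genes and cells, other cluster resolutions, other limits of Cst7, cells thinned to 2000 UMIs, no block and leaving out each library. The limit on microglial markers, the fit without cells holding BAM marker UMIs and the fit on library totals alone were chosen after seeing the data. Gene positions are from the annotation of mm10 and promoters from RefSeq. Tmppe overlaps Glb1 on the same strand and may share reads with it. Without use of strand, genes that overlap a member on the opposite strand (such as Card14 for Sgsh and Fam171a2 for Grn) may also do so. No source used here states the use of strand.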

Additional observations from a re-analysis of the deposited data

Results flagged for a closer look

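Of the members, 5 values differed in direction between cell classes with both intervals clear of 0, or with both tests passed. Other members differed in direction with an interval in BAM-like cells that took in 0. Among these were Ctns (-0.47, -1.12 to 0.18) and Glb1 (-0.24, -0.75 to 0.28) for hCD33m over Control in BAM-like cells, both above 0 in microglia-like cells. Laptm5 for hCD33M over Control had a log2 ratio of -0.15 in BAM-like cells (1816 against 2009 CPM, interval -0.24 to -0.05) and of 0.08 in microglia-like cells (0.06 to 0.10). For hCD33m over hCD33M it had 0.16 in BAM-like cells (0.07 to 0.24) and -0.03 in microglia-like cells. Psap for hCD33m over hCD33M had 0.10 in BAM-like cells (1635 against 1527 CPM) and -0.05 in microglia-like cells (1565 against 1618 CPM). These 3 differences were not tested, since each genotype is 1 library. The 9 microglial markers summed to 11291 CPM in BAM-like cells of Control, 8771 CPM in hCD33M and 11203 CPM in hCD33m. In BAM-like cells under 6000 CPM of these markers, Laptm5 for hCD33m over hCD33M had a log2 ratio of -0.06 (1214 against 1264 CPM, interval -0.25 to 0.14), no longer opposite to microglia-like cells. There Laptm5 for hCD33M over Control had -0.20 (-0.43 to 0.03) and Psap for hCD33m over hCD33M 0.07 (-0.11 to 0.24), and all 3 intervals took in 0.

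Gaa and Asah1 were higher in BAM-like and lower in monocyte-like cells than in microglia-like cells. The direct comparison of monocyte-like with BAM-like cells gave a log2 fold change of -1.80 for Gaa (edgeR adjusted p 0.000118) and of -0.76 for Asah1 (edgeR adjusted p 1.69e-05), and both were lower in monocyte-like cells in 3 of 3 libraries. Gaa rested on 3, 4 and 4 UMIs in monocyte-like cells, and Asah1 stood there at 308, 340 and 245 CPM against 593, 588 and 538 CPM in BAM-like cells.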

How the results depend on the processing

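The counts below are of members only, without the shares of all genes called under the same alternative. In BAM-like against microglia-like cells, 6 members were higher and 3 lower. DESeq2 called 2 and 1, the fit with no replicate block 5 and 1, library totals alone 5 lower, and cells low in microglial markers 6 lower, and leaving out a library gave 3 to 5 higher and 1 to 3 lower. In monocyte-like against microglia-like cells thinning to 2000 UMIs gave 3 higher in place of 6, and leaving out a library gave 5 to 6 higher and 12 to 15 lower. Against BAM-like cells thinning gave 2 higher in place of 4, and leaving out a library gave 3 to 5 higher and 12 to 14 lower. Without the block the counts of monocyte-like cells stayed at 6 and 14 and at 4 and 14, and the Cst7 count was 11 in place of 15. In Cst7-positive cells leaving out a library gave 8 to 18 higher, and the count was 13 for a cluster led by Cst7 (with 3, 169 and 152 cells in Control, hCD33M and hCD33m, so that Control rests on 3 cells), 18 for at least 1 UMI and 15 for at least 3 UMIs, with 0 lower each time. For hCD33m over Control no member was past 1.5-fold, in place of 1 past 1.2-fold, and for hCD33m over hCD33M thinning gave 1 in place of 0. The summed share of the members in microglia-like cells rose to 1.80% in Control, 1.81% in hCD33M and 1.83% in hCD33m when mitochondrial, ribosomal protein and Malat1 UMIs were left out of the total, was 1.564% in Control over all kept cells and 1.558% in hCD33M under a stricter cell filter. Over the named members of the class and Cst7 comparisons, 518 values under an alternative kept their direction and side of the threshold, 31 kept the direction only and 0 reversed, while for genotypes 279 stayed within their interval and 4 moved. In monocyte-like cells 69 cells limit every low member.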
